A study of Mus musculus with 2 samples.

Results

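Immediate early genes and the genes of the AP-1 transcription factor were followed in mRNA-seq data of DNA-hypomethylated mouse embryonic fibroblasts (MEFs). The group comprises 10 genes chosen by name, and a gene was taken as measured if an entry of the deposited table carried its symbol. Of the 10 genes, 8 had an entry among the 29126 entries of the table, namely Fos, Fosb, Fosl1, Fosl2, Jund, Egr1, Atf3 and Myc. Jun and Junb had no entry under these symbols and were not analysed here. Strand-specific mRNA-seq was carried out on Dnmt1+/+ and on Dnmt1-/- MEFs, with 1 library each. Both lines lack functional Trp53, the gene of the p53 protein, and the strain is given as unknown. The line called Dnmt1-/- carries, per the study, a hypomorphic allele of Dnmt1 on both chromosomes, and Dnmt1 encodes the maintenance DNA methyltransferase. The comparison addresses which genes differ in expression when DNA methylation is severely reduced, and each genotype is represented by a single cell line.

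Immediate early genes are transcribed within minutes of a growth factor, serum or stress signal, without new protein synthesis, and their mRNAs are short-lived. Many encode transcription factors. AP-1 is a dimer of basic leucine zipper proteins, in which a member of the Fos family (Fos, Fosb, Fosl1, Fosl2) pairs with a member of the Jun family (Jun, Junb, Jund), whereas Jun proteins can also pair with each other or with Atf3. In fibroblasts AP-1 is known for carrying proliferative and matrix-remodelling responses downstream of the MAP kinases. Egr1 is a zinc finger factor of the serum response, and Myc is a basic helix-loop-helix factor that promotes growth.

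In Dnmt1-/- MEFs all 4 Fos family genes, Egr1 and Myc had a higher RPKM than in Dnmt1+/+ MEFs, and Jund and Atf3 had a lower one. RPKM is the number of reads on a transcript scaled to the length of the transcript and to the total of mapped reads. Fos was the 1 gene more than 2-fold higher and Atf3 the 1 gene more than 2-fold lower among the 7 that reached an RPKM of 1 in one library or the other. A gene can pass this minimum only through the library where it is higher, as Fos did through Dnmt1-/- (0.719 and 2.18 RPKM). Changes are given on the log2(RPKM + 0.1) scale as Dnmt1-/- minus Dnmt1+/+, which makes changes at low RPKM look smaller than they are. Across the 11244 genes that passed the same minimum with the status OK and a gene symbol, 8.47% exceeded 2-fold on the higher side, 10.9% on the lower side and 19.4% on either. With 7 genes counted, 1 gene on each side is close to that background. The median log2 change of the 11244 genes was -0.14, and 5 of the 7 genes lay above it. No genotype was replicated, so values carry no error, differences have no replicate check and no p-value was computed. The table holds no read counts, and the totals of mapped reads that the study states for both libraries were not used here, so no counting intervals are given.

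The library labels were examined first. For Dnmt1, 65.2 RPKM were measured in Dnmt1+/+ MEFs against 14.5 in Dnmt1-/- MEFs (log2 change -2.16). Trp53 was at 18.6 and 19.9 RPKM, so RNA from this locus was counted in both lines, and which exons the null allele lacks was not examined. All 14 fibroblast markers had an entry and 12 reached 1 RPKM, with a summed RPKM of 6651 in Dnmt1+/+ and 5388 in Dnmt1-/-. Of these 12, 2 (16.7%) exceeded 2-fold on the higher side and 3 (25%) on the lower side, against 8.47% and 10.9% of all genes. The markers with the highest RPKM included Col1a1 at 1448 and 898 RPKM and Vim at 2269 and 1873. The 2 higher were S100a4, at 289.6 and 1262 RPKM, and Pdgfra, at 6.95 and 18.7, and the 3 lower were Col1a2, at 1241 and 475.9, Fn1, at 663.7 and 235.5, and Thy1, at 4.84 and 0.129. Each of the 4 endothelial and the 4 pluripotent markers stayed under 1 RPKM in both libraries. The summed RPKM of 4 haematopoietic markers was 0.666 in Dnmt1+/+ and 9.71 in Dnmt1-/-, carried by Csf1r (0.0702 and 6.08) and Cd68 (0.596 and 3.63), while Ptprc and Emr1, which define leukocytes and macrophages, were listed at 0 in both. The sum of 5 epithelial markers was 7.19 and 1.06 RPKM, of which Krt19 alone reached 1 RPKM, at 6.90 and 0.326, and that of 3 neuronal markers was 17.0 and 13.2. The part of these marker differences in the results on immediate early genes was not tested.

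The sequence before the gene start is shown for Fos, Fosb and Atf3, because these genes share there the core of the cyclic AMP response element (CRE), which CREB and Atf proteins are known to bind. The 250 bases before the RefSeq gene start (RefSeq promoter table of GRCm38.p6) were found for 5 of the 8 measured genes and placed by exact match on NCBIM37, the assembly also called mm9. The stretches are chr12:86814590-86814839 on the plus strand, chr7:19895395-19895644 on the minus strand and chr1:193007213-193007462 on the minus strand, written 5′ to 3′ with the core TGACG or its reverse complement in capitals.

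Fos: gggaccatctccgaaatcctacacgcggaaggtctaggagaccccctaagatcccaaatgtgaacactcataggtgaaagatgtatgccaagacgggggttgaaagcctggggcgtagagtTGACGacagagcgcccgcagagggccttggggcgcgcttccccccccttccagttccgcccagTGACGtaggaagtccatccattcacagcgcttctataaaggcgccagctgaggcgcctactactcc
Fosb: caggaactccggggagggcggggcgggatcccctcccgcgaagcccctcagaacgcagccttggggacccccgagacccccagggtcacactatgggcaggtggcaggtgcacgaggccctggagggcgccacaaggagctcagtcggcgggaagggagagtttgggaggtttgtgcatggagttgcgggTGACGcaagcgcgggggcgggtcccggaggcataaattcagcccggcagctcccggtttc
Atf3: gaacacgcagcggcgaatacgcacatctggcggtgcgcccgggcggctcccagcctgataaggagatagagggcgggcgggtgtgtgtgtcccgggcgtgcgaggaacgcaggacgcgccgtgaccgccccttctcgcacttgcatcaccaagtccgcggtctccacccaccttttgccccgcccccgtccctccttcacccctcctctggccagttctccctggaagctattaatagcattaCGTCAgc

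Fos held the core at 2 places, starting 129 and 66 bases before the gene start, and a TATAA match starting 33 bases before it. Fosb held 1 core starting 60 bases before the gene start. In Atf3 the core began 7 bases before the RefSeq start, inside the gene as the GENCODE annotation of NCBIM37 draws it. The same 250 bases before Fosl2 and Jund held no TGACG on either strand. Across all 32851 promoter windows of RefSeq the core was held by 17.8%, and across 11 windows of ubiquitously expressed genes by 54.5%. A match describes the letters in the window and is not evidence of binding. The full palindromic CRE (TGACGTCA, which contains the core), the AP-1 site TGACTCA, the E-box CACGTG and the CArG box of the serum response factor had no match in any of the 5 windows. Bases further upstream than 250 were not searched, so a promoter without a match may hold the site outside the window. The number of CpG dinucleotides, the sites at which Dnmt1 maintains methylation, was 15 before Fos, 19 before Fosb, 23 before Fosl2, 24 before Atf3 and 3 before Jund. The median over all windows was 6, with quartiles of 2 and 16. Fosb, Fosl2 and Atf3 thus lay above the upper quartile of CpG number, and Jund lay below the median.

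Among the Fos family, the values differed more between genes than between the libraries. Fos, the prototype of the family, lies at chr12:86814840-86818223 (plus strand) of NCBIM37. It was at 0.719 RPKM in Dnmt1+/+ and 2.18 in Dnmt1-/-, 3.04-fold higher, with a log2 change of 1.48. Fos was thus a low gene in both lines, at the 4.0 percentile of the 11244 genes in Dnmt1+/+ and the 15.4 percentile in Dnmt1-/-. With a pseudocount of 1 in place of 0.1 its log2 change was 0.89 and it was no longer past 2-fold.

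Fosb, at chr7:19888070-19895394 (minus strand), was the lowest of the 8 genes. It had 0.356 RPKM in Dnmt1+/+ and 0.596 in Dnmt1-/-, so it did not reach the minimum of 1 RPKM and enters no count. Its ratio of 1.68 rests on very low values.

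Fosl1 and Fosl2 encode the Fos-related antigens Fra-1 and Fra-2, which lack the strong transactivation domain of Fos. Fosl1 lies at chr19:5447703-5455945 (plus strand), and had 16.2 RPKM in Dnmt1+/+ and 22.1 in Dnmt1-/-, a log2 change of 0.44. The entry of Fosl1 shares its locus with Ccdc85b on the opposite strand, at 5.54 and 7.83 RPKM, and whether strand was used in assigning reads is not given in the sources used here. Fosl2, at chr5:32438845-32460204 (plus strand), had 14.3 RPKM in Dnmt1+/+ and 26.7 in Dnmt1-/-. This was 1.87-fold higher, a log2 change of 0.90, and Fosl2 lay at the 90.8 percentile of all changes. After subtraction of the median change of all genes Fosl2 was at 1.04 and became the second gene more than 2-fold higher, against 1 lower.

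The Fos family was made up almost entirely of these 2 genes at the RNA level. Fosl1 and Fosl2 together held 96.6% of the summed RPKM of the family in Dnmt1+/+ and 94.6% in Dnmt1-/-. The sum over the 4 genes was 31.6 RPKM in Dnmt1+/+ and 51.5 in Dnmt1-/-, 1.63-fold higher.

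Jund encodes the Jun family member that is known to be expressed in resting cells and to vary less with stimulation than Jun and Junb. It lies at chr8:73221638-73224515 (plus strand). Jund stood at 46.7 RPKM in Dnmt1+/+ against 25.95 in Dnmt1-/-, 1.80-fold lower, with a log2 change of -0.85. In Dnmt1+/+ Jund had the highest RPKM of the 8 genes, whereas in Dnmt1-/- it was below Myc and narrowly below Fosl2. The summed RPKM of the Fos family was 0.676 times that of Jund in Dnmt1+/+ and 1.99 times that of Jund in Dnmt1-/-. As Jun and Junb were not analysed here, this ratio covers only a part of the possible AP-1 dimers.

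**Figure D1:**
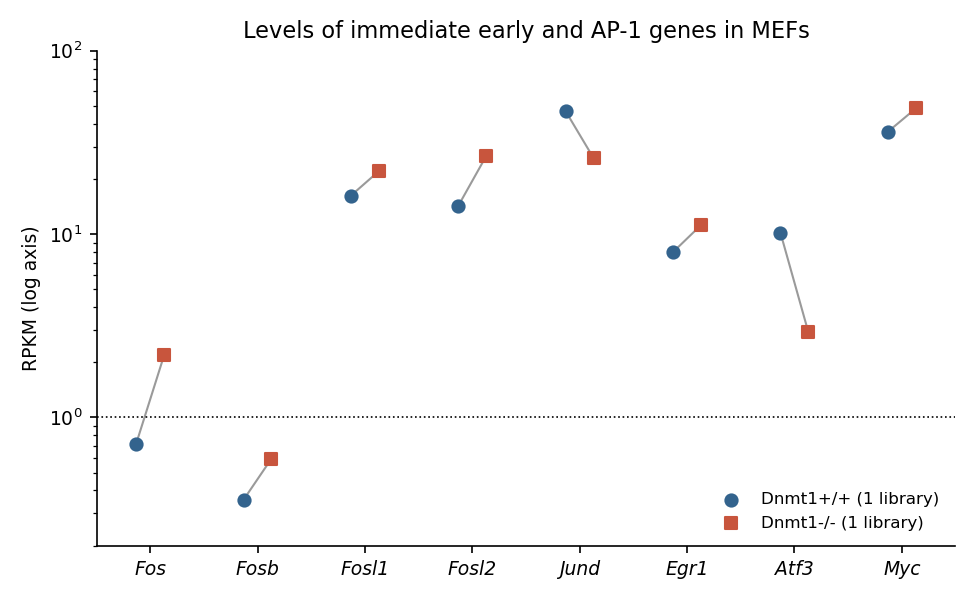
RPKM (vertical log axis) of the 8 immediate early and AP-1 genes in the Dnmt1+/+ library (circles) and the Dnmt1-/- library (squares), with lines joining the values of a gene and a dotted line at 1 RPKM. Fos, Fosb, Fosl1, Fosl2, Egr1 and Myc are higher in Dnmt1-/-, Jund and Atf3 are lower, and Fosb is under 1 RPKM in both.

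Egr1 had 7.98 RPKM in Dnmt1+/+ and 11.2 in Dnmt1-/-, a log2 change of 0.48. Myc, at chr15:61816946-61821929 (plus strand), had 36.1 RPKM in Dnmt1+/+ and 48.5 in Dnmt1-/-, a log2 change of 0.42. It was the highest of the 8 genes in Dnmt1-/-. Egr1, Fosl1 and Myc, at 0.48, 0.44 and 0.42, differed by little from each other and lay between the 81.5 and the 83.4 percentile of all changes.

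Atf3 encodes a stress-induced basic leucine zipper factor that is known to repress many of its targets as a homodimer. It lies at chr1:192994175-193007219 (minus strand). Atf3 had 10.2 RPKM in Dnmt1+/+ and 2.92 in Dnmt1-/-, 3.48-fold lower, with a log2 change of -1.77. It moved from the 47.0 percentile of levels in Dnmt1+/+ to the 19.9 percentile in Dnmt1-/-. The gene stayed more than 2-fold lower under each of the 5 other pseudocounts and scalings tried, with log2 changes between -1.80 and -1.51.

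**Figure D2:**
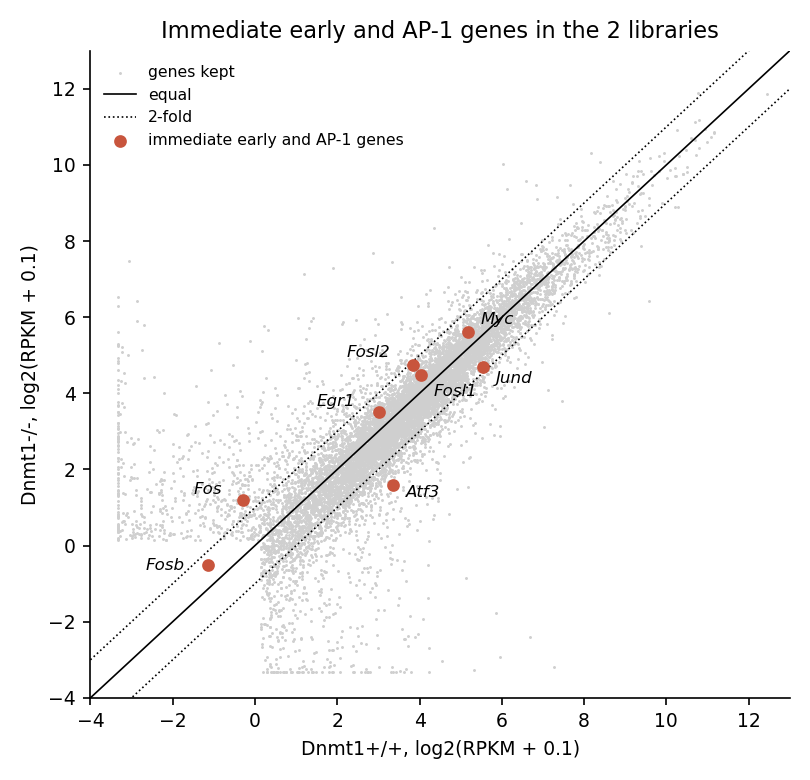
Each gray point is 1 of the 11244 genes kept, with log2(RPKM + 0.1) in Dnmt1+/+ on the horizontal axis and in Dnmt1-/- on the vertical axis. The line marks equal values and the dotted lines mark 2-fold, and of the 8 labelled genes Fos lies above and Atf3 below the 2-fold lines, while Fosb is drawn although it did not reach 1 RPKM.

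The genes known to be induced together with Fos and Egr1 were higher in Dnmt1-/- MEFs more often than lower. Of 32 other immediate early genes, 29 had an entry and 25 passed the filter. Of these 25, 10 (40%) exceeded 2-fold on the higher side and 1 (4%) on the lower side, against 8.47% and 10.9% of all genes. The median log2 change was 0.69 against -0.14 for all genes. Ptgs2, the inducible cyclooxygenase of prostaglandin synthesis, had 3.02 RPKM in Dnmt1+/+ and 19.0 in Dnmt1-/-. Cyr61 encodes a matricellular protein, and it had the highest level of the list, at 113.9 and 709.0 RPKM, 6.22-fold higher in Dnmt1-/-. Ctgf, a related matricellular gene, was at 47.3 and 150.2 RPKM. Arc, best known as a neuronal immediate early gene, was at 0.677 and 2.74 RPKM and passed the filter only through Dnmt1-/-. The gene counted as lower was Plk3, a Polo-like kinase, at 4.58 RPKM in Dnmt1+/+ and 1.56 in Dnmt1-/-. Btg2, at 2.17 and 1.03 RPKM, was 2.09-fold lower by its ratio but within 2-fold on the RPKM + 0.1 scale. With a pseudocount of 0.01 or none, 2 genes of the list were counted as lower. Plk2, the paralog of Plk3, at 108.1 and 71.6 RPKM, stayed within 2-fold. The close relatives of Egr1 were low in both lines, with Egr2 at 0.338 and 0.474 RPKM, Egr3 at 0.532 and 0.543, and Egr4 listed at 0 in both. Of other transcription factor genes of the list, some were more than 2-fold higher and some stayed within 2-fold. Higher were Csrnp1 at 1.48 and 5.44 RPKM, Klf2 at 5.15 and 14.9, Klf10 at 3.76 and 9.71, and Nr4a2 at 1.28 and 2.97. Within 2-fold were Klf6, Nr4a1, Maff, Klf4 and Bhlhe40, with log2 changes of 0.97, 0.54, 0.47, -0.04 and -0.16.

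**Figure D3:**
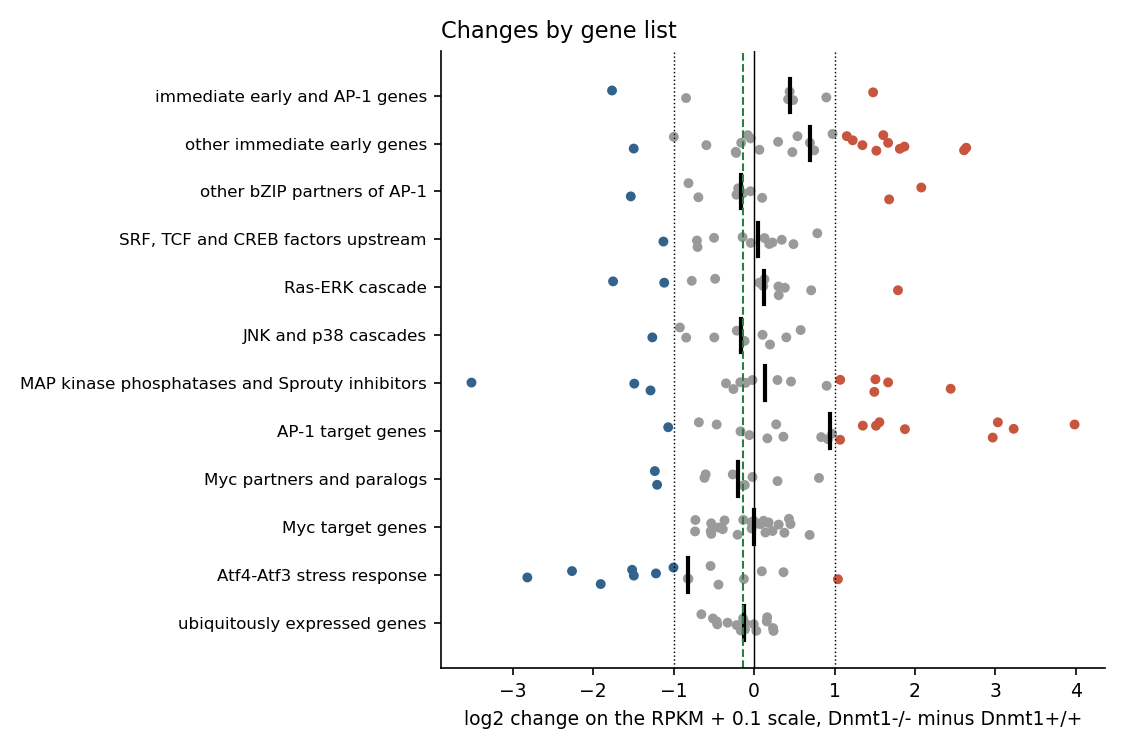
Log2 change on the RPKM + 0.1 scale, Dnmt1-/- minus Dnmt1+/+, for each gene that passed the filter in 12 lists, with the median of each list as a black bar, the median of all genes as a dashed green line and 2-fold as dotted lines. Points past 2-fold are red (higher) or blue (lower). AP-1 target genes (median 0.94) and other immediate early genes (0.69) lie furthest to the right, and the Atf4-Atf3 stress response (-0.82) furthest to the left.

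The genes that relay the signal to the immediate early promoters were mostly within 2-fold, and so were all genes, of which 19.4% were past it. Among 12 factors of the serum response and CREB groups, none was more than 2-fold higher and 1 (8.33%) was lower. The shares of all genes were 8.47% and 10.9%, and the median of the list was 0.04. Srf, the serum response factor, was at 20.6 RPKM in Dnmt1+/+ and 29.0 in Dnmt1-/-. Its coactivator Mkl1 was at 16.6 and 28.7 RPKM, and the ternary complex factor Elk3 at 36.6 and 42.8. Creb1, the CRE-binding factor, was at 7.91 and 3.57 RPKM, a log2 change of -1.13, and it was within 2-fold after the median change was subtracted.

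In the Ras-ERK cascade 12 entries of 11 genes were kept, with a median of 0.12. Of these entries 1 (8.33%) was higher and 2 (16.7%) were lower, against 8.47% and 10.9% of all genes. The 2 kinases downstream of ERK that were listed, Rps6ka3 and Rps6ka1, were the lower ones, at 15.3 and 4.47 RPKM and at 6.26 and 2.83 RPKM in Dnmt1+/+ and Dnmt1-/- respectively. Map2k1, which encodes the ERK kinase Mek1, had 2 entries, at 39.9 and 43.2 RPKM and at 7.47 and 26.1 RPKM, of which only the second was past 2-fold. Map2k2, which encodes the related kinase Mek2, was at 138.5 and 170.8 RPKM. In the JNK and p38 cascades none of 10 genes was more than 2-fold higher, and 1 (10%), Mapk12, was lower, at 11.5 and 4.74 RPKM. Mapk14, the main p38 kinase, was at 28.7 and 32.9 RPKM.

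Genes that encode inhibitors of these cascades differed in both directions. Of 16 MAP kinase phosphatases and Sprouty family genes, all kept, 5 (31.2%) exceeded 2-fold on the higher side and 3 (18.8%) on the lower side. The shares of all genes were 8.47% and 10.9%, and the median of the list was 0.13. Dusp1, an immediate early phosphatase of JNK and p38, was at 5.49 RPKM in Dnmt1+/+ and 30.3 in Dnmt1-/-, 5.52-fold higher. Dusp10 was at 4.71 and 15.2 RPKM and Dusp4 at 3.79 and 11.0. In the other direction Dusp9 was at 3.88 RPKM in Dnmt1+/+ and 0.248 in Dnmt1-/-. Spry1 was at 10.5 and 3.68 RPKM and Spry4 at 1.49 and 0.550, both encoding inhibitors of receptor tyrosine kinase signalling. Dusp9 and Spry4 passed the filter only through Dnmt1+/+, where they were higher. Dusp2, among the 5 higher, was at 0.703 and 1.59 RPKM and passed only through Dnmt1-/-. Dusp6, which encodes an ERK phosphatase, differed by less than 2-fold, at 9.55 and 7.47 RPKM. The activity of ERK was not tested.

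Other basic leucine zipper genes whose products can pair with Fos or Jun proteins were described as well. Of 10 kept, 2 (20%) were more than 2-fold higher and 1 (10%) was lower, against 8.47% and 10.9% of all genes. The median was -0.17. Maf had 2.50 RPKM in Dnmt1+/+ against 10.9 in Dnmt1-/-. Mafk, a small Maf gene, was at 7.98 and 25.7. Atf2, a CRE-binding partner of Jun, was at 16.0 and 5.45 RPKM, a log2 change of -1.53. Jdp2, which encodes a Jun dimerization protein, was at 68.9 and 73.8 RPKM and was thus higher than Jund in either library.

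Genes known as targets of AP-1 had the highest median change of the 11 pathway lists. All 25 listed genes had an entry, 27 entries in all, of which 20 passed the filter. Of these 20 entries, 9 (45%) were higher by more than 2-fold and 1 (5%) was lower by as much. The shares of all genes were 8.47% and 10.9%, and the median log2 change of the list was 0.94. Timp1, an inhibitor of matrix metalloproteinases, was at 72.4 RPKM in Dnmt1+/+ against 265.8 in Dnmt1-/-. The chemokine Cxcl1 was at 0.540 and 5.89 RPKM, and the growth factor Ereg had 2 entries, at 0.258 and 2.82 RPKM and at 1.38 and 2.54 RPKM. Cxcl1, Mmp3 and the first of these Ereg entries passed the filter only through Dnmt1-/-, where they were higher. Spp1, which encodes osteopontin, was within 2-fold at 131.0 and 168.7 RPKM, and Ccnd1, the cyclin of the G1 phase, was at 79.5 and 76.2. Vegfa was the lower one, at 45.9 and 21.8 RPKM, a log2 change of -1.07, and it was within 2-fold after the median change was subtracted. Many of these genes also respond to other factors, and a list of targets does not measure AP-1 activity.

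The sequences before 4 of the target genes that hold the AP-1 site are shown, picked after the values were seen. All 8 genes with the site had a higher RPKM in Dnmt1-/- MEFs, several of them from values near 0. A link between the site and the change was not tested. Windows were found for 17 of the 25 target genes, 21 windows in all, and 8 windows (38.1%) held TGACTCA or its reverse complement, against 4.46% of all 32851 windows. The 8 were those of Ezr, Il6, Il11, Lif, Mmp3, Mmp10, Mmp13 and Plaur. Such genes were listed as AP-1 targets in part because of these sites, so the share is a description of the list. The stretches printed are chr9:7445572-7445821 on the plus strand, chr9:7272264-7272513 on the plus strand, chr7:25247252-25247501 on the plus strand and chr17:6987130-6987379 on the minus strand of NCBIM37, 5′ to 3′, with the AP-1 site in capitals.

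Mmp3: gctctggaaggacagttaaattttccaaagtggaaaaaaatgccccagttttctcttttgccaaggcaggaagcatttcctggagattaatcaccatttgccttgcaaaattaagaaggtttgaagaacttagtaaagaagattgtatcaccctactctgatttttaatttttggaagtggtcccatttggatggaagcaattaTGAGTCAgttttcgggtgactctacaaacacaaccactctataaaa
Mmp13: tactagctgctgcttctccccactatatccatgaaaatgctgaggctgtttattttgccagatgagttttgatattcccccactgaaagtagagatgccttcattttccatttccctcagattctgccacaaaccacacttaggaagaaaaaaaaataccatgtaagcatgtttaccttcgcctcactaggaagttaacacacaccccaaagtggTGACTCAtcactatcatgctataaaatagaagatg
Plaur: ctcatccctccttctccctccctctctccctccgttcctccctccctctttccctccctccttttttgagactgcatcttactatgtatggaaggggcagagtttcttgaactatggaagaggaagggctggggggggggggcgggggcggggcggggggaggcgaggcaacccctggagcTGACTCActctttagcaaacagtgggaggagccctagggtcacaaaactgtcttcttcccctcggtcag
Ezr: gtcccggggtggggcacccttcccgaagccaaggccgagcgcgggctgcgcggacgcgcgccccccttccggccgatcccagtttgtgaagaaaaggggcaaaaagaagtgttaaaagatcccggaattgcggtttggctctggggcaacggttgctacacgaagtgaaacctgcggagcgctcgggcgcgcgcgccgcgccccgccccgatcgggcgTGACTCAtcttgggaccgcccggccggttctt

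The site began 46 bases before the gene start in Mmp3, 35 in Mmp13, 69 in Plaur and 32 in Ezr. Mmp3, which encodes stromelysin-1, was at 0.0896 RPKM in Dnmt1+/+ and 1.38 in Dnmt1-/-. Mmp13, which encodes a collagenase, was at 0.0103 and 0.747 RPKM and so stayed under the minimum. Plaur, the urokinase receptor, was at 11.5 and 29.5 RPKM, and Ezr, which encodes the membrane-cytoskeleton linker ezrin, was at 26.1 and 74.8. The other 4 genes with the site did not reach 1 RPKM in either library. Il6 was at 0.0207 and 0.0557 RPKM, Il11 at 0.0103 and 0.145, Lif at 0.936 and 0.975, and Mmp10 was listed at 0 in Dnmt1+/+ and had 0.157 in Dnmt1-/-. The site was thus found before genes that stayed under 1 RPKM in both lines as well as before genes that exceeded it. Mmp3 and Mmp13 had 1 CpG each in the window, Plaur had 6 and Ezr had 32.

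**Figure D4:**
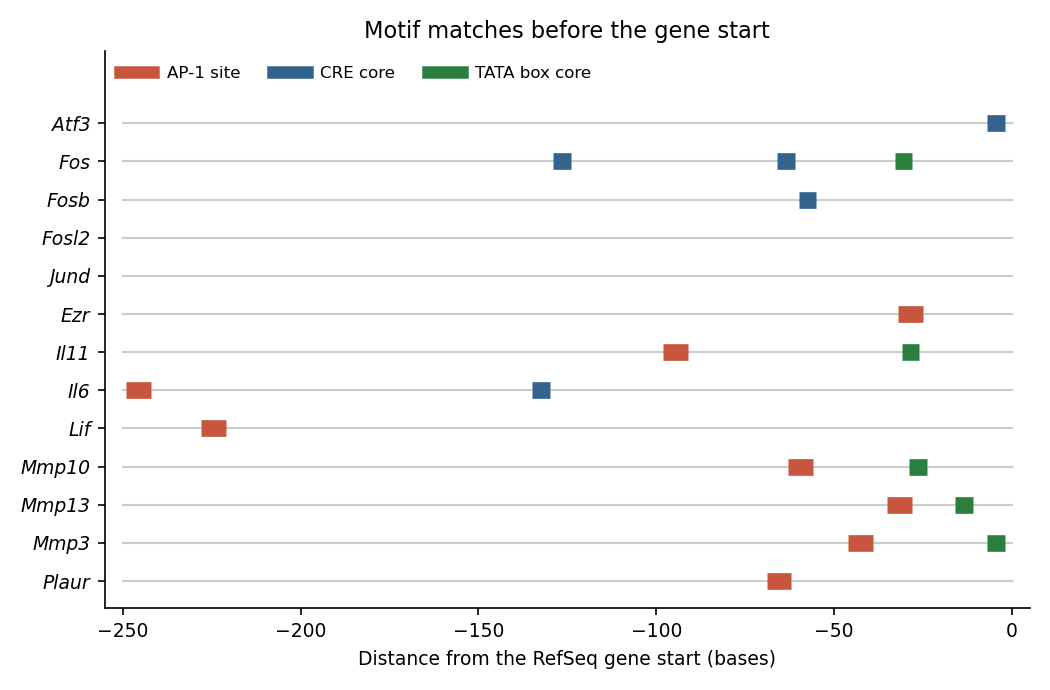
Positions of matches to the AP-1 site (red), the CRE core (blue) and the TATA box core (green) in the 250 bases before the RefSeq gene start, with the distance from the start in bases on the horizontal axis. The upper 5 genes are the measured immediate early and AP-1 genes with a window, and the lower 8 are the AP-1 target genes with an AP-1 site. Fos, Fosb and Atf3 hold a CRE core, none of the 5 holds an AP-1 site, and the AP-1 sites of the targets begin between 32 and 249 bases before the start.

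The genes that act with Atf3 in the Atf4 branch of the stress response were more often lower than higher in Dnmt1-/- MEFs, and Atf3 itself was lower. In this branch eIF2alpha kinases raise the translation of Atf4, which activates Atf3 and genes of amino acid metabolism. Of 15 genes, all kept, 7 (46.7%) were past 2-fold on the lower side and 1 (6.67%) on the higher side. Of all genes 10.9% and 8.47% were past 2-fold on these sides. The median log2 change of the list was -0.82. Ddit4, an inhibitor of mTORC1 signalling, was at 61.9 RPKM in Dnmt1+/+ and 8.68 in Dnmt1-/-, 7.13-fold lower. The pseudokinase gene Trib3 was at 57.4 and 11.9 RPKM and Sesn2, a sestrin, at 13.6 and 3.56. Atf4, the highest gene of the list, was at 405.3 and 230.2 RPKM and stayed within 2-fold, and so did Ddit3, which encodes CHOP, at 131.8 and 96.9. Of the 4 eIF2alpha kinase genes, Eif2ak1 was the 1 gene of the list past 2-fold in the other direction, at 18.6 and 38.4 RPKM. The 2 other kinase genes Eif2ak2 and Eif2ak3 were within 2-fold, at 188.5 and 129.5 RPKM and at 7.59 and 6.94, whereas Eif2ak4 was at 15.0 and 7.45, just past 2-fold lower and within 2-fold once the median change was subtracted. Atf4 is counted here and among the basic leucine zipper genes. Ppp1r15a, the stress-induced phosphatase subunit that opposes these kinases, was at 11.2 and 12.0 RPKM.

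**Figure D5:**
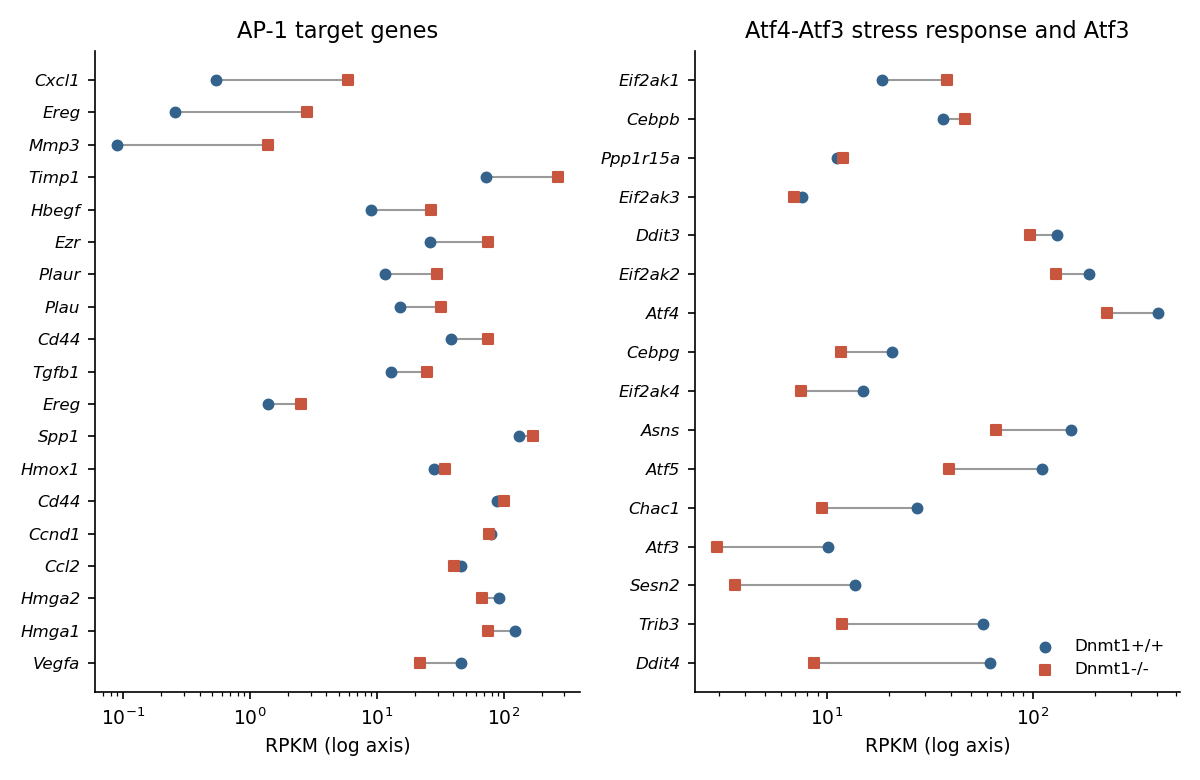
RPKM (horizontal log axis) in the Dnmt1+/+ library (circles) and the Dnmt1-/- library (squares) for 19 of the 20 AP-1 target entries that passed the filter (left) and for the 15 genes of the Atf4-Atf3 stress response with Atf3 (right), ordered by change. On the left 8 of the entries drawn are more than 2-fold higher and 1 is lower in Dnmt1-/-, and on the right 7 genes and Atf3 are more than 2-fold lower and Eif2ak1 is more than 2-fold higher.

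The Myc network was mostly within 2-fold, and so were all genes, of which 19.4% were past it. Max, the obligate partner of Myc, was at 31.4 RPKM in Dnmt1+/+ and 38.5 in Dnmt1-/-. Of 10 partners and paralogs kept, none was more than 2-fold higher and 2 (20%) were lower, against 8.47% and 10.9% of all genes. The median of these partners and paralogs was -0.20. The 2 lower were Mxd4, which encodes an antagonist of Myc, at 33.6 and 14.2 RPKM, and the paralog Mycl1, at 1.35 and 0.526. Mycl1 passed the filter only through Dnmt1+/+, where it was higher. Mxd3, another antagonist, was at 11.9 and 21.0 RPKM. None of 25 entries of Myc target genes was past 2-fold in either direction, and their median was 0.00. Npm1, which encodes the nucleolar protein nucleophosmin, was at 1202 and 830 RPKM, Nme2 at 413.7 and 404.8, and the chaperonin gene Hspd1 at 301.4 and 300.5. The 16 ubiquitously expressed genes likewise had none past 2-fold, with a median of -0.13.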

How the data were processed

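The mRNA-seq libraries, 1 per genotype, were strand-specific. The authors deposited RPKM values with a status per entry, and the submitters' processing notes name TopHat, Cufflinks, Cuffdiff and the assembly mm9. Program versions, and any further scaling of the libraries, are not given in the sources used here. Of 272 entries under 0.02 RPKM in both libraries the ratio of the libraries took 261 distinct values, so whole reads were not recovered. The study states the mapped reads of both libraries, and these totals were not used here.

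Columns named for wild-type and knock-out were assigned to Dnmt1+/+ and Dnmt1-/- MEFs. From the deposited RPKM, log2(RPKM + 0.1) was taken, and genes with status OK, a symbol and at least 1 RPKM in either library were counted past 2-fold. The counting step was tested on simulated data. All listed genes, and the gene lists, were chosen with earlier results of these data known. Named genes are the 8 measured genes, in each list up to 3 with the largest change past 2-fold in each direction and up to 3 with the highest level. Dusp2, Dusp6, Egr2, Egr3, Egr4, Btg2, Csrnp1, Klf2, Klf4, Klf6, Klf10, Nr4a1, Nr4a2, Maff, Bhlhe40, S100a4, Pdgfra, Col1a2, Fn1, Thy1, Ccnd1, Ppp1r15a, Eif2ak3, Eif2ak4, Plaur, Ezr, Il6, Il11, Lif, Mmp3, Mmp10 and Mmp13 were added after their values were seen. Results on some genes that enter the counts are not reported here by name. Gene positions are from GENCODE on NCBIM37 and promoter sequences from RefSeq (GRCm38.p6). Motifs were searched on both strands, TATAA on the sense strand only. Other pseudocounts, filters, scalings and a 1.5-fold threshold were tried. Python 3.11.15, numpy 2.4.6, pandas 2.3.3 and matplotlib 3.10.9 were used.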

Additional observations from a re-analysis of the deposited data

How the results depend on the processing

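All 8 measured genes kept the direction of their change under other pseudocounts (1, 0.01 or none) and scalings (median change subtracted, or upper quartiles set equal). Of these values 38 stayed on their side of 2-fold, and the exceptions were Fos with a pseudocount of 1 (0.89) and Fosl2 with the median change of -0.14 subtracted (1.04). Of the counts past 2-fold under the alternatives, for the measured genes, all genes and 11 lists, 90 stayed within 1.5 times the count reported and 14 did not. With a pseudocount of 1 the count was 1 for the measured genes (Atf3), 0 for the serum response and CREB factors and 1 for Myc partners. With the median subtracted it was 0 for the serum response and CREB factors, and the split of higher and lower became 2 and 1 for the measured genes 1 and 1 for the Ras-ERK cascade, 11 and 0 for AP-1 targets, and 1092 and 965 in place of 952 and 1225 for all genes. With a mean of at least 1 RPKM it was 1 for Myc partners. At a 1.5-fold threshold, which by construction takes in more genes, the count was 4 for the measured genes, 4250 for all genes, 5 for other basic leucine zipper genes, 4 for the serum response and CREB factors, 5 for the Ras-ERK cascade, 3 for the JNK and p38 cascades, 5 for Myc partners, 3 for Myc targets and 1 for ubiquitously expressed genes. The counts for AP-1 targets, other immediate early genes, MAP kinase inhibitors and the Atf4-Atf3 response stayed within 1.5 times under all 8 alternatives. No paired analysis was possible because each genotype has 1 library.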

Other observations

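The genes within 100 kb of the immediate early and AP-1 genes were mostly within 2-fold, and so were all genes, of which 19.4% were past it. In this window of the 8 measured genes lay 56 named entries, of which 43 passed the filter, with a median log2 change of 0.19. Of the 43, 3 were more than 2-fold higher and none was lower, against 8.47% and 10.9% of all genes. On the higher side, 3 of 43 is close to that background. Of the 3, Eml2, 96.2 kb from Fosb, was at 1.84 RPKM in Dnmt1+/+ and 4.83 in Dnmt1-/-. Cst6, 89.8 kb from Fosl1, was at 0.501 and 2.17. Gdf15, a stress-induced cytokine gene 66.1 kb from Jund, was at 0.180 and 5.89. Cst6 and Gdf15 passed the filter only through Dnmt1-/-, where they were higher. Other entries lay nearer to each of these measured genes. Downstream of Myc, the non-coding gene Pvt1 had 2 entries at 1 locus, at 48.4 and 80.6 RPKM and at 4.52 and 3.65 RPKM. Batf3, the neighbour of Atf3 and itself a basic leucine zipper gene, was at 1.33 and 0.782 RPKM. The neighbours were named after their values were seen.

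Across the lists the 250 bases before the gene start differed in the motifs they held. Of 40 windows of other immediate early genes, 5 (12.5%) held a CArG box, against 1.47% of all windows. The CRE core TGACG was held by 20 (50%) of them, against 17.8% of all windows. It was about as frequent before Myc target genes (51.9%) and ubiquitously expressed genes (54.5%), so it did not set immediate early genes apart. Of 27 windows of Myc target genes 8 (29.6%) held the E-box CACGTG, against 6.02% of all windows. TGACG and CACGTG contain a CpG, and the median number of CpG in the windows was 17.5 for other immediate early genes and 18.0 for Myc targets, against 6 for all windows. These shares are descriptions of the lists, and genes with several windows enter more than once.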
